A study of Mus musculus with 3 samples.

Results

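Testicular macrophages were picked out of single-cell libraries of mouse testis by their own marker transcripts. A kept barcode held at least 1000 unique molecular identifiers (UMIs, the count of captured transcript molecules), more than 500 genes and under 10% mitochondrial UMIs. A kept barcode was called a macrophage when the 7 gate genes C1qa, C1qb, C1qc, Csf1r, Tyrobp, Fcer1g and Adgre1 together held at least 3 UMIs and at least 0.1% of its UMIs, and when 7 stromal and myoid genes held fewer UMIs than that sum. There were 71 such barcodes among 17580 kept in all. Dissociated cells of seminiferous tubules were loaded from adult C57BL/6 mice of 3 genotypes, with 1 library each: wild type (WT), GRTH-KO (KO), which lacks the testis RNA helicase GRTH encoded by Ddx25, and GRTH-KI (KI), transgenic mice that carry a human GRTH gene with a missense mutation that blocks its phosphorylation. The labels give 8 weeks of age and 1 mouse per genotype, while the study's methods give pooled testes of a pair of mice per group and a wider age range. With 1 library per genotype no difference between genotypes could be tested, and all intervals below are exact 95% intervals that cover counting error only.

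Macrophages are the main immune cells of the testis. In mice they lie in the interstitium, in close contact with the testosterone-producing Leydig cells, and along the outer wall of the seminiferous tubules, where a population that is rich in major histocompatibility complex (MHC) class II has been described. Their survival depends on the receptor CSF1R, their lineage on the transcription factor PU.1 (Spi1), and they are known as a main source of the complement component C1q, which tags dying cells for removal. The tissue had been freed of its outer capsule and digested with collagenase and then trypsin, so macrophages attached to the tubules and those of the interstitium could both have been carried over.

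Promoters of 4 genes whose transcripts ran through the results are shown first, as RefSeq gives them for GRCm38.p6, the assembly that mm10 also names. Each window runs from 250 bases before to 50 bases after the transcription start and is written 5′ to 3′ on the gene's own strand. C1qb and C1qc encode chains of C1q and sit with C1qa in a cluster of 18.7 kb on chromosome 4. In their windows the capitals mark the core letters GAGGAA, or TTCCTC on the other strand, which PU.1 is known to bind. The C1qb window is chr4:136886151-136886450 on the minus strand and the C1qc window is chr4:136892865-136893164 on the minus strand. H2-Aa and H2-Eb1 encode chains of MHC class II molecules, within 59.0 kb of chromosome 17 that also holds H2-Ab1. In their windows the capitals mark the Y box core GATTGG, or CCAATC on the other strand, the site of the factor NF-Y in MHC class II promoters. The H2-Aa window is chr17:34287774-34288073 on the minus strand and the H2-Eb1 window is chr17:34305617-34305916 on the plus strand.
C1qb: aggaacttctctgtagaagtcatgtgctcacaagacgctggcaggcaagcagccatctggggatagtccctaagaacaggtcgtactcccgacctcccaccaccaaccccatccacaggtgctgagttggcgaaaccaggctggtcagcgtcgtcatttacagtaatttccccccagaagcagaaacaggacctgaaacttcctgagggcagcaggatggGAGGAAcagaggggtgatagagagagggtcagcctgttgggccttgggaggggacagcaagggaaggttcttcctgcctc
C1qc: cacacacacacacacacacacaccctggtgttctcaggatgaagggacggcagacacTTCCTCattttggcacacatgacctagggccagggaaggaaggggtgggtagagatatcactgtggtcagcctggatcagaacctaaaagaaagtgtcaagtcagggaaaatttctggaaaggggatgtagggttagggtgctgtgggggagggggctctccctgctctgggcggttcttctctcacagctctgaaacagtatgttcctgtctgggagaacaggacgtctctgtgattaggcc
H2-Aa: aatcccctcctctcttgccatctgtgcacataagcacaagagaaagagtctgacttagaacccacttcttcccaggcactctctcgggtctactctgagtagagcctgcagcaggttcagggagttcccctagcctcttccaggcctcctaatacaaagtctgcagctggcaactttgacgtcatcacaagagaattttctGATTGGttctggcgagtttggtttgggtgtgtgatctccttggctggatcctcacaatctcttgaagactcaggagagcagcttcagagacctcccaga
H2-Eb1: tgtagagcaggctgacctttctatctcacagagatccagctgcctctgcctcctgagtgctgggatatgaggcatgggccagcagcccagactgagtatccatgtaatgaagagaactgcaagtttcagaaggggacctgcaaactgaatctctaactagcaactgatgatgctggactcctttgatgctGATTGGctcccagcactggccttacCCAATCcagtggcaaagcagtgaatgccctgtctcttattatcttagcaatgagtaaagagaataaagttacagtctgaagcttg
The Y box began at position -49 in H2-Aa, and at -60 and -35 in H2-Eb1, counted from the first transcribed base as 0. The PU.1 core began at -30 in C1qb and at -193 in C1qc. The core GAGGAA stood on either strand in 28.3% of the 32851 promoter windows of the table, and GATTGG in 16.1%. Of the 11 genes of the MHC class II list, 8 had a window and 7 of these held a Y box core, against 18.2% of the 27025 genes with a window. Of the 7 gate genes and the 25 leading genes named below, 25 had a window and 15 held the PU.1 core, against 31.3% of all genes. The letters of the cores do not overlap each other, a match is a description of the sequence, and C1qa, Csf1r, Tyrobp, Adgre1 and H2-Ab1 had no window in the table.

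WT gave 10 macrophages of 6232 kept barcodes, 0.160% (95% interval 0.077 to 0.295). KO gave 31 of 8214, 0.377% (0.257 to 0.535). KI gave 30 of 3134, 0.957% (0.647 to 1.36). The share was lowest in WT and highest in KI, and the interval of KI did not reach those of WT and KO, which overlapped each other. With mitochondrial UMIs under 5% the intervals of KI (0.498 to 1.18) and KO (0.228 to 0.511) overlapped. The number of kept barcodes also differed, and since most of them carried germ cell transcripts, more macrophages and fewer recovered germ cells cannot be told apart in these shares. Leydig barcodes were gated on Cyp17a1, Insl3, Hsd3b6, Cyp11a1, Star and Hsd17b3, at 5 UMIs and 0.2%, after macrophages had been set apart. The counts were 10 macrophages beside 15 Leydig barcodes (WT), 31 beside 18 (KO) and 30 beside 17 (KI). Counted as macrophages only were 3 KO and 3 KI barcodes that also carried Leydig transcripts, described below. Sertoli barcodes numbered 45, 69 and 28, and stromal and myoid barcodes 22, 53 and 30. KO and KI therefore held similar numbers of macrophages beside like numbers of Leydig barcodes, but KI held fewer Sertoli and fewer stromal and myoid barcodes than KO. How KO and KI compare thus depended on the cells set beside the macrophages. WT held fewer macrophages than either. With a minimum of 500 UMIs the shares fell to 0.137% for WT, 0.148% for KO, and for KI 0.485%, and with 2000 UMIs they were 0.0873%, 0.531% and 1.81%, so KO lay close to WT at the lower minimum and far above it at the higher one.

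**Figure D1:**
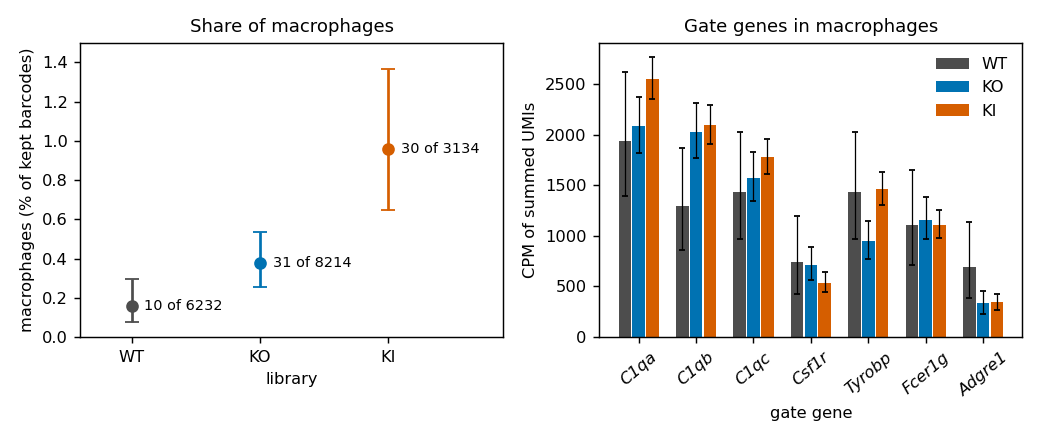
Left, macrophages as a percentage of kept barcodes in each library, with exact 95% intervals for counting error: WT 10 of 6232, KO 31 of 8214, KI 30 of 3134. Right, level of each of the 7 gate genes in the summed macrophages of each library in CPM (UMIs per 1000000 UMIs), with exact Poisson 95% intervals; C1qa stands highest in every library and Adgre1 lowest.

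The pooled median was 2650 UMIs in macrophages and 2217 in all kept barcodes. By library the macrophages had a median of 1730 UMIs for WT, 2606 for KO, and for KI 3964, and they ranged from 1007 to 49869 UMIs. Together they held 354519 UMIs: 21672 for WT, 108529 for KO, and for KI 224318. WT values therefore rest on the fewest molecules, and levels are given per library for the genes that matter and otherwise pooled. The median mitochondrial share was 3.0% in macrophages, 2.71% in stromal and myoid barcodes, 5.91% in Sertoli and 7.63% in Leydig barcodes, and 0.0895% in the remaining kept barcodes, most of which carried germ cell transcripts. No macrophage barcode occurred among the macrophages of another library, and 16, 9 and 8 kept barcodes were shared between WT and KO, WT and KI, and KO and KI. The barcode of 1 KO macrophage was also kept in WT, without being a macrophage there.

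Few macrophages lay near the limits of the gate. They held 3 to 409 gate UMIs with a median of 30, and these made up 0.136% to 3.24% of their UMIs. Just inside the limits, 3 KO macrophages held 3 or 4 gate UMIs and 1 KO macrophage had 0.136%. Just outside, 1 KO barcode held 2 gate UMIs at 0.103%, and 20, 20 and 21 barcodes of WT, KO and KI held at least 3 gate UMIs but less than 0.1%, among deep barcodes with median UMIs of 28457, 60348 and 64934. A further 1 KI barcode with 14 gate UMIs was set aside for its stromal UMIs, and 3 KO and 1 KI barcodes for a mitochondrial share of 10% or more.

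The gate genes chose these cells, so their levels are given as a description. Levels are UMIs of a gene per 1000000 UMIs of the summed cells (CPM). C1qa was at 1938 CPM for WT, 2082 for KO, and for KI 2554. C1qb was at 1292, 2027 and 2095 CPM, and C1qc at 1430, 1576 and 1779 CPM. The 3 chains, which assemble into 1 complex, were thus all above 1000 CPM in each library, and 60 of the 71 macrophages held UMIs of all 3. Tyrobp and Fcer1g, the adaptor chains through which activating immune receptors signal, were at 1303 CPM (1187 to 1428) and 1125 CPM (1018 to 1242) with the libraries pooled. Csf1r, the receptor for the macrophage growth factors CSF1 and IL-34, was at 601 CPM (523 to 687), and Adgre1, which encodes the surface marker F4/80, at 361 CPM (301 to 429). Each of the 7 was at or below 17.3 CPM in stromal and myoid, Sertoli and Leydig barcodes. After every cell was thinned to 1000 UMIs, C1qa was seen in 56 of 71 macrophages, 78.9% (67.6 to 87.7), and in 0 of 1500 remaining barcodes, which the gate itself had set apart; 3 counts in 1500 would be 0.2%, and the exact upper limit is 0.246%. Without thinning C1qa was seen in 90.1% of the macrophages. Csf1r was seen after thinning in 42.3% (30.6 to 54.6) and Adgre1 in 40.8% (29.3 to 53.2), so 1 cell without their UMIs says little at this depth.

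Genes that the rule did not name are given next. Of 1064 genes at 100 CPM or more in the macrophages of each library, 342 (32.1%) were at least 4-fold above the other kept barcodes in each library, with 10 CPM added. The cells were chosen by this contrast, so nothing is read from that share. The 25 leading genes outside the gate, ordered by their smallest ratio over the libraries, held many known macrophage genes: Cd74, Lyz2, H2-Aa, H2-Eb1, Ftl1, Apoe, Pf4, Mrc1, Selenop, Zeb2, H2-Ab1, Tmsb4x, F13a1, Dab2, Ccl8, Ctsb, Ctss, Cyba, Slc9a9, Rps4x, Ctsc, Pid1, Wfdc17, H2-D1 and Psap. Apoe, the lipoprotein that carries cholesterol out of macrophages, was the most abundant of them in the pool, at 9275 CPM for WT, 11066 for KO, and for KI 11328. Cd74, the invariant chain of MHC class II, was at 5030, 4450 and 5720 CPM. Lyz2, the lysozyme of myeloid cells, was at 2584 CPM for WT, 3105 for KO, and for KI 4846.

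**Figure D2:**
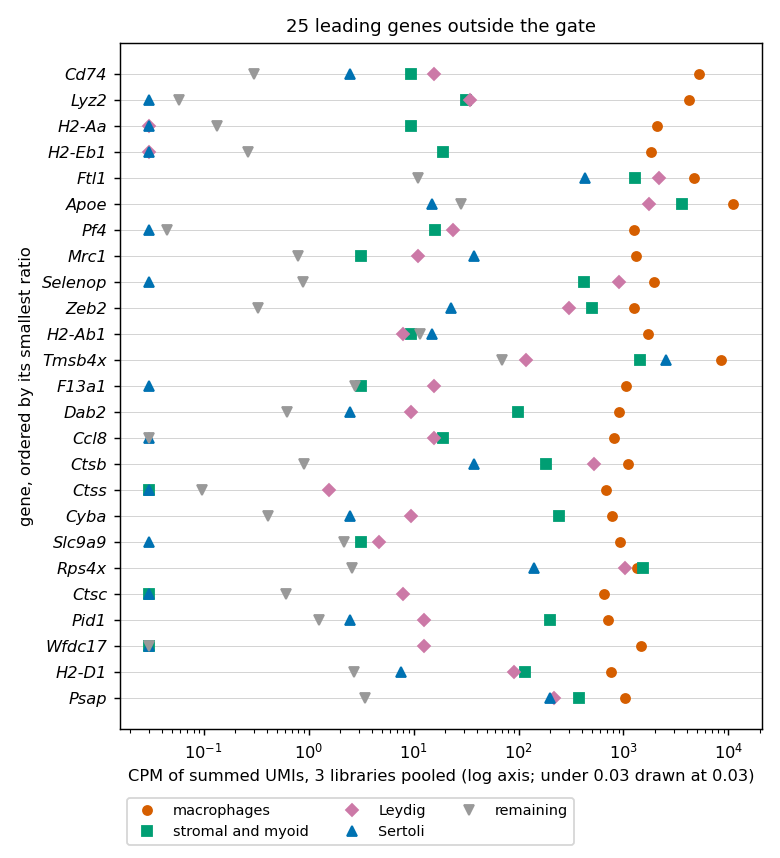
Levels (CPM of summed UMIs, 3 libraries pooled, log axis) of the 25 leading genes outside the gate in macrophages and in stromal and myoid, Leydig, Sertoli and remaining kept barcodes. Macrophages stand to the right of the other barcodes for 24 genes, from Cd74 at 5289 CPM to Psap at 1024 CPM, while Rps4x is at 1348 CPM in macrophages and 1540 CPM in stromal and myoid barcodes.

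Several of these genes were shared with other somatic cells. Apoe was at 3586 CPM in stromal and myoid barcodes and 1767 CPM in Leydig barcodes, against 11122 CPM (10778 to 11475) in the pooled macrophages. Selenop, a selenium transport protein, was at 417 CPM in stromal and myoid and 905 CPM in Leydig barcodes, against 1963 CPM (1820 to 2115). Others were close to absent outside the macrophages: Ctss, a cathepsin that trims MHC class II invariant chain, was at 688 CPM (605 to 780) and at 0 UMIs in stromal and myoid and Sertoli barcodes, and Ctsc, which activates serine proteases, was at 649 CPM (568 to 738) with 0 UMIs in both.

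In the resident macrophage list, 18 of 19 measured genes were detected. Outside the gate gene Adgre1, 9 of the 9 that reached 100 CPM in each library were at least 4-fold above the other barcodes, beside 32.1% of all genes at that level. The cells were chosen by this contrast, so nothing is read from these list counts, here or below. Mrc1, the mannose receptor CD206, was at 1938 CPM for WT, 1603 for KO, and for KI 1132 and was seen in 57 of 71 cells. F13a1, the coagulation factor XIII A chain, was at 1246, 1170 and 985 CPM, and Stab1, a scavenger receptor, at 461, 553 and 374 CPM. Some markers of other resident populations were scarce: Cd163, the haemoglobin scavenger receptor, had 21 UMIs in 12 cells, Timd4 had 4 UMIs in 3 cells and Lyve1 had 1 UMI. Folr2, of the same list, was less so, with 45 UMIs in 19 of the cells of high Apoe described below and 1 UMI in those of low Apoe. The peritoneal macrophage factor Gata6 had 1 UMI.

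Transcription factors of the lineage were present, most of them at lower levels. Spi1, which encodes PU.1, was at 369 CPM for WT, 286 for KO, and for KI 232 and was seen in 47 cells. Zeb2, which maintains tissue macrophage identity, was at 2123, 1198 and 1199 CPM. Maf, which restrains the proliferation of mature macrophages, was at 598 CPM (520 to 684). Of the 9 listed factors that reached 100 CPM in each library, 8 were at least 4-fold above the other barcodes, beside 32.1% of all genes, and Klf2 was not.

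Ligands of macrophage receptors were compared with the neighbouring cells. Csf1, which feeds Csf1r, had 7 UMIs in 3 macrophages (19.7 CPM), all of them among the 6 cells rich in Leydig transcripts described below, and 0 UMIs in the others, against 92.3 CPM in stromal and myoid and 45.7 CPM in Leydig barcodes. Il34, the other ligand, had 0 UMIs in macrophages, which allows up to 8.46 CPM, and 1 UMI in Leydig barcodes (1.58 CPM), but 378 UMIs in the remaining barcodes (2.42 CPM), of which 1.87% held one. Cx3cr1, the receptor of the chemokine Cx3cl1, was at 384 CPM (322 to 454) in macrophages, and Cx3cl1 at 41.4 CPM in stromal and myoid barcodes and 2.82 CPM in macrophages. Gas6, a bridging ligand for dying cells, was at 195 CPM (151 to 246) in macrophages, and its receptor Mertk at 192 CPM (149 to 243), against 102 CPM in stromal and myoid and 91.4 CPM in Leydig barcodes. Gas6 was also at 162 CPM in stromal and myoid and 178 CPM in Leydig barcodes, and a further receptor, Axl, was at 95.9 CPM in macrophages, 124 CPM in stromal and myoid and 3.15 CPM in Leydig barcodes. Tgfbr2, a receptor chain of TGF-beta, was at 271 CPM (219 to 331) and its ligand Tgfb1 at 133 CPM (97.4 to 176). Ch25h, the enzyme that makes 25-hydroxycholesterol, a steroid precursor that macrophages can pass to Leydig cells, had 5 UMIs in 5 macrophages and none in the other gated somatic barcodes.

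Lysosomal genes, which serve digestion of ingested material, were measured next. Of 26 lysosome and cathepsin genes, all were detected, 24 reached 100 CPM on the pooled cells, and 19 of the 21 at 100 CPM in each library were at least 4-fold above the other barcodes, beside 32.1% of all genes. The list summed to 14212 CPM for WT, 16751 for KO, and for KI 18603. It was at 7393 CPM in Leydig, 6794 CPM in stromal and myoid and 3091 CPM in Sertoli barcodes. Among the iron storage genes, Fth1 and Ftl1, the ferritin chains, were at 2353 and 2584 CPM for WT, 5344 and 4847 CPM for KO, and 6201 and 4797 CPM for KI. Among the genes for clearance of dying cells, 6 of 6 at 100 CPM in each library were at least 4-fold above the other barcodes, beside 32.1% of all genes. The receptors Havcr1 and Tyro3 had 0 UMIs, and Cd36, a scavenger receptor, had 0 UMIs in WT and was at 166 CPM in KO but 486 CPM in KI.

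Inflammatory cytokines were few. Tnf had 37 UMIs in 13 cells and was at 415 CPM for WT, 175 for KO, and for KI 40.1. Il10, which damps inflammation, had 22 UMIs in 9 cells, Il1b had 15 UMIs in 8 cells, and Il6, Il1a and Nos2 had 0 UMIs. Chemokines were dominated by Pf4 at 1107, 1723 and 1052 CPM and by Ccl8 at 923, 1060 and 695 CPM, in the order WT, KO, KI. Arg1, a marker of alternative activation, had 0 UMIs, and Retnla had 157 UMIs of which 146 came from 1 KI cell. Genes that digestion of tissue can induce were present too: Fos was at 485 CPM (415 to 563) and Jun at 406 CPM (343 to 478), and the list of immediate early and heat shock genes summed to 5306 CPM for WT, 4911 for KO, and for KI 4124, against 2981 CPM in the remaining barcodes.

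Markers of other blood cells differed in level. The monocyte list summed to 578 CPM, against 25.6 CPM in empty barcodes and 980 CPM in stromal and myoid barcodes. The list as a whole thus did not set the macrophages apart from stromal and myoid barcodes. In macrophages S100a6 had 83 UMIs, S100a4 had 43, Fn1 had 28 and Ccr2 had 26, while Ly6c2, Plac8 and Vcan had 0 UMIs. None were found of S100a9, Mmp9 and Ly6g of the neutrophil list or of Flt3, Xcr1 and Clec9a of the dendritic cell list. S100a8 had 1 UMI and Csf3r 5. The dendritic cell list held 49 UMIs over 7 of its 11 genes and summed to 138 CPM, against 317 CPM in empty barcodes. The T, NK and B lymphocyte list summed to 113 CPM over the macrophages, against 40.9 CPM in empty barcodes. The neutrophil list summed to 7230 CPM, all but a few UMIs of it from Lcn2, which is taken up next. The endothelial list summed to 42.3 CPM, against 55.2 CPM in empty barcodes, and Kdr, Tie1 and Cldn5 had 0 UMIs. The Sertoli list summed to 1754 CPM, or 657 CPM without the cells described next, against 126 CPM in empty and 15207 CPM in Sertoli barcodes, with its defining genes Wt1, Sox9 and Fshr at 0 UMIs; its highest members Defb19 (652 CPM) and Clu (451 CPM) were higher in Leydig barcodes, at 2983 and 2044 CPM. The stromal and myoid list summed to 914 CPM, or 161 CPM without those cells.

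A group of 6 macrophages, 3 of KO and 3 of KI, carried the transcripts of Leydig cells. These held 237 to 529 UMIs of the Leydig cell list, while none of the other 65 held more than 7 and 48 held none. They were deep barcodes of 9530 to 27966 UMIs, against a median of 2498 UMIs in the others, and held 28.3% of all macrophage UMIs. Their Cyp17a1, a key enzyme of androgen synthesis, was at 3192 CPM, against 4925 CPM in Leydig barcodes and 11.8 CPM in the other macrophages. Insl3, the peptide hormone of Leydig cells, was at 2474 CPM, against 3645 and 15.7 CPM. Lcn2 had 2557 UMIs in all macrophages, 2549 of them (99.7%) in these 6, and it was at 17803 CPM in Leydig barcodes. Each of the 6 also held 8 to 66 UMIs of C1q, with C1qa at 878 CPM against 1.58 CPM in Leydig barcodes. The barcodes therefore held both sets of transcripts; doublets were not removed, and whether a Leydig cell and a macrophage shared the droplet or the cells were attached was not tested. Several values that rest on these 6 are marked as such below, some with the value without them.

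The other 65 macrophages separated by Apoe. The values that follow chose the split, which was drawn after the cells had been seen, and it is a description. In 22 cells Apoe made up at most 0.171% of UMIs, and in 43 it made up at least 0.444%, with none between. WT had 3 cells of low Apoe and 7 of high Apoe, KO had 6 and 22, and KI had 13 and 14. The share of low cells was 30.0% (6.67 to 65.2) for WT, 21.4% (8.30 to 41.0) for KO, and for KI 48.1% (28.7 to 68.1), and the intervals overlapped. In KO most of the low cells were shallow: among cells of at least 2000 UMIs the share was 0% for WT, 6.25% for KO, and for KI 52.4%. The median was 2145 UMIs in low and 2650 in high cells.

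MHC class II was higher in cells of low Apoe. The MHC class II list made up a median of 4.23% of UMIs (0 to 8.89) in low cells and 0.422% (0 to 5.66) in high cells. Of the low cells 20 of 22 held at least 1%, and of the high cells 16 of 43, so the groups overlapped. Cd74 was at 17704 CPM in low and 2587 CPM in high cells of WT. In KO it was at 17598 and 4277 CPM, and in KI at 18183 and 3374 CPM, or 6029 CPM in high cells without the deepest macrophage, which held no Cd74. The order of low over high thus held in each library, and H2-Aa followed at 6834 CPM in low and 1542 CPM in high cells of the 3 libraries. H2-Ab1 and H2-Eb1 were at 5454 and 6120 CPM in low and both at 1329 CPM in high cells. After thinning to 1000 UMIs the list held a median of 43.5 UMIs in low and 5 in high cells, so the order was the same at equal depth. H2-Aa and H2-Eb1 are the genes whose promoters with the Y box are printed above.

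**Figure D3:**
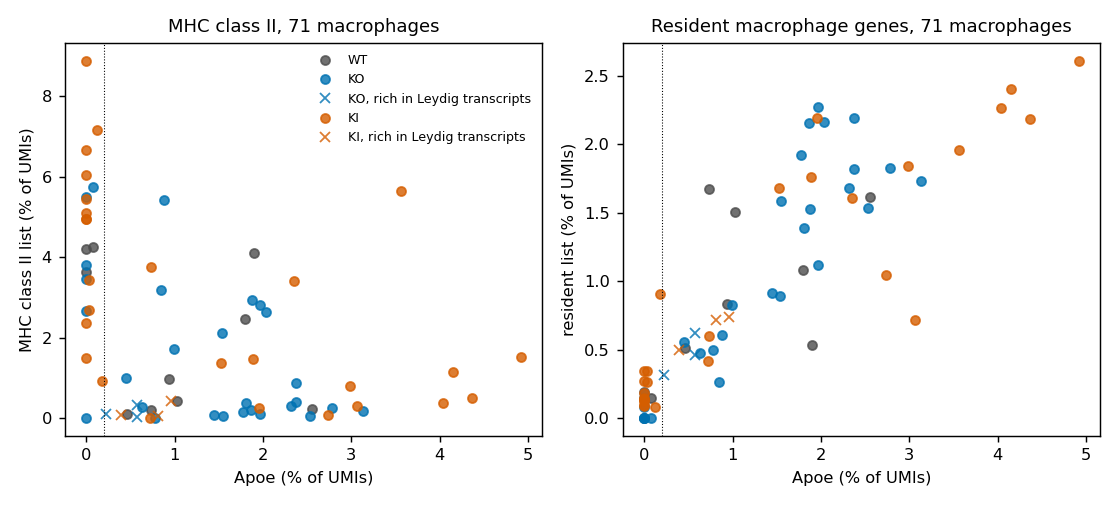
Each point is 1 of the 71 macrophages, coloured by library, with crosses for the 6 rich in Leydig transcripts and a dotted line at 0.2%. Against the share of Apoe in a cell's UMIs the left plot gives the MHC class II list, with a median of 4.23% in low and 0.422% in high cells, and the right plot the resident macrophage list, with medians of 0.136% and 1.58%.

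Resident macrophage genes ran the other way. Their list made up a median of 0.136% of UMIs (0 to 0.903) in low cells and 1.58% (0.260 to 2.61) in high cells, and 17 of the 22 low cells lay below every high cell. Mrc1 was at 390 CPM in low and 1915 CPM in high cells, Selenop at 292 and 2517 CPM, and F13a1 at 64.9 and 1562 CPM. Ccl8, a chemokine for monocytes and other leukocytes, had 0 UMIs in the low cells of each library, which allows up to 48.7 CPM in their pool, and 238 UMIs in 34 of the high cells. The scavenger receptor Colec12, the guidance receptor Nrp1, the lectin Cd209f and the apoptotic cell receptor and ligand Mertk and Gas6 likewise had 0 UMIs in low cells, and 649, 462, 389, 260 and 218 CPM in high cells. The transcription factor Maf was at 81.2 CPM in low and 929 CPM in high cells.

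The genes that defined the gate did not follow this split evenly. C1qa was at 2792 CPM in low and 3016 CPM in high cells, C1qb at 2402 and 2647 CPM, C1qc at 1542 and 2284 CPM, and Tyrobp at 1802 and 1692 CPM. Csf1r was at 373 CPM in low and 836 CPM in high cells, but at 1428 and 605 CPM in WT. Fcer1g was at 2110 and 1194 CPM, but at 1179 and 1518 CPM in KO. Adgre1 was at 698 and 379 CPM, but at 571 and 715 CPM in WT and 363 and 473 CPM in KO, and 19 of its 43 low UMIs came from 1 KI cell. Cx3cr1 was at 438 and 472 CPM. The order of several of these genes rested on few cells. In 5 low cells with at least 10 UMIs of the monocyte list, which held 26648 of the 61604 low UMIs, C1q gave 23 UMIs in all. In the other 17 low cells C1qa was at 4749 CPM, C1qb at 4005 CPM and C1qc at 2460 CPM, each above the level in high cells, and Cx3cr1 was at 772 CPM. Most UMIs of the low cells were from KI, where C1qa was at 3229 and 3180 CPM. The high value of KI rested on the deepest macrophage, of 49869 UMIs, and without it C1qa was at 4956 CPM in KI high cells and 3747 CPM in all high cells. Without it C1qc was at 2941 CPM and Tyrobp at 2136 CPM in all high cells, so Tyrobp was then lower in low cells, and Tyrobp in KI high cells was at 3173 CPM against 1961 CPM with it. Adgre1 was at 544 CPM in those 17 low cells and at 490 CPM in high cells without the deepest macrophage. No direction is therefore given for the C1q genes, Tyrobp, Adgre1 and Cx3cr1 between low and high cells. In WT C1qa was at 857 CPM in low and 2146 CPM in high cells, and in KO at 1542 and 2971 CPM.

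**Figure D4:**
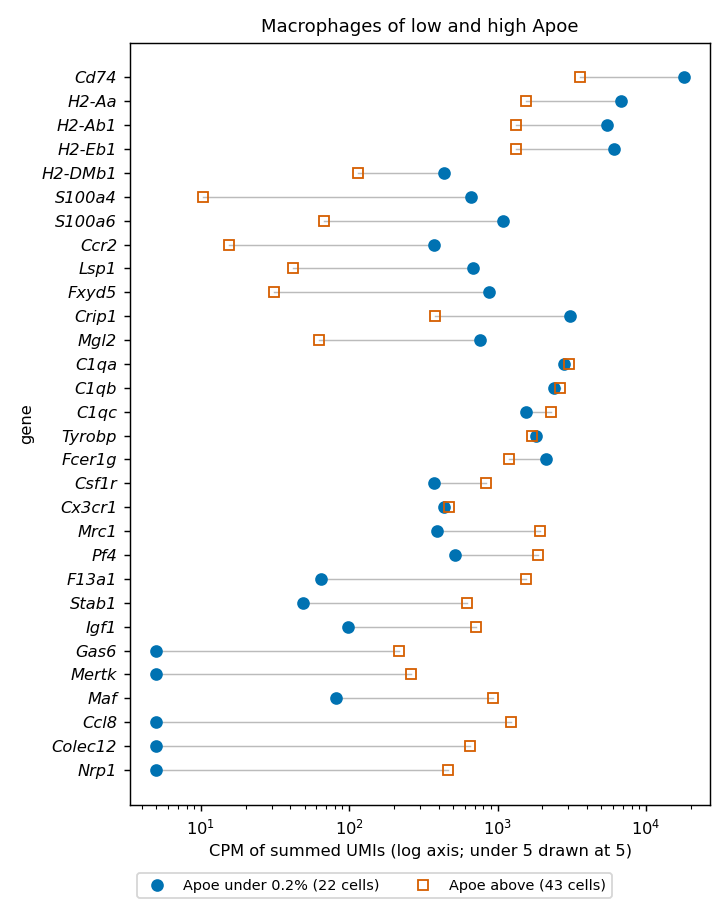
Levels (CPM of summed UMIs, log axis) of 30 genes in the 22 macrophages of low Apoe and the 43 of high Apoe, 3 libraries pooled. Cd74 stands at 18051 and 3587 CPM, C1qa at 2792 and 3016 CPM, and Ccl8 at 0 and 1235 CPM.

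Of the genes with the highest ratio of low over high cells in KI, some are given here, chosen after their values were seen. S100a4 was at 666 CPM in low and 10.4 CPM in high cells, Ccr2, the receptor with which monocytes leave the blood, at 373 and 15.6 CPM, and the cytoskeletal protein Lsp1 at 682 and 41.5 CPM. Fxyd5 was the most widely spread of them, in 19 of 22 low and 4 of 43 high cells, and Mgl2, a C-type lectin, was in 10 and 7. Ccr2 and S100a4 came from few cells, 4 and 6 of the low ones. With these genes the monocyte list summed to 2824 CPM in low and 145 CPM in high cells, although its defining genes Ly6c2 and Plac8 had 0 UMIs. Of the 174 UMIs in low cells, 72, 46, 20 and 13 came from 4 single cells that are described next, and none came from WT. These 4 held at most 1 UMI of C1q and no Apoe, so their label of macrophage is uncertain. Without the 5 low cells of at least 10 monocyte list UMIs, S100a4 and Ccr2 were both at 28.6 CPM, 1 UMI each, and Lsp1 was at 343 CPM in low cells.

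A few cells stood apart, and they were chosen after their values were seen. In 7 macrophages C1q gave at most 1 UMI. The 3 deepest of these, of 7915 and 6732 UMIs in KI and 4023 UMIs in KO, held 119, 343 and 221 MHC class II UMIs, 12, 13 and 7 UMIs of S100a4, 10, 11 and 1 of Ccr2 and no Apoe. They held 2, 0 and 0 UMIs of Csf1r and 0, 2 and 6 of the dendritic cell list, with 3 of Cd209a and 3 of Itgax in the KO cell. They entered mainly by Tyrobp and Fcer1g, they are counted among the low cells, and they held most of the Ccr2 and S100a4 UMIs given for those. With little or no C1q, Csf1r and Apoe, their label of macrophage is uncertain. The first of them held 146 UMIs of Retnla and 25 of Fn1. In KO, 1 cell of 1556 UMIs entered by 4 UMIs of Fcer1g alone, with 0 of C1q, Csf1r and Apoe, and it held 13 UMIs of the monocyte list and 9 of the lymphocyte list, 3 of them Nkg7, so its markers go against the label. In KI, 1 cell of 14553 UMIs held 251 UMIs of Spp1, 172 of Lgals3, 115 of Ccl6, 70 of Fabp5 and 48 of Gpnmb, genes of lipid-laden macrophages, beside 292 UMIs of C1q and 446 of Apoe. No other macrophage came near it: Spp1 was seen in 1 further cell, with 19 UMIs.

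The spermatocyte, round spermatid and elongating spermatid lists in the summed macrophages lay below the level in empty barcodes, which hold free RNA. The spermatogonia list lay above it, at 135 CPM against 23.4 CPM. Of its 48 UMIs, 43 came from the 6 cells rich in Leydig transcripts, and it was at 19.7 CPM without them. The elongating spermatid list made up 1.69% (WT), 0.240% (KO) and 0.154% (KI) of macrophage UMIs, against 5.55%, 2.19% and 2.92% in empty barcodes of the same libraries. The median cell held 0.722%, 0.269% and 0.144%. In WT, 226 of the 366 UMIs came from 1 cell of 2880 UMIs, in which the list made up 7.85%. Single cells passed the empty level for other lists too. The spermatocyte list reached 1.27% in a KO cell, against 0.854% in empty barcodes, and the round spermatid list 1.29% in a KI cell, against 0.309%. The deepest macrophage, of 49869 UMIs in KI, held 319 UMIs of the spermatocyte list, 254 of them Ldhc, beside 90 of C1q, 360 of Apoe and 139 gate UMIs. Its share of the spermatocyte list, 0.640%, was below the 0.837% of KI empty barcodes. Ddx25 had 0 UMIs in WT and KO macrophages and 10 UMIs in 4 KI macrophages, 44.6 CPM, with 7 of the 10 in the deepest macrophage. In the remaining barcodes it was at 131 CPM for WT, 0.319 for KO, and for KI 98.6, and in empty barcodes at 145, 8.39 and 117 CPM. A count of 0 allows up to 138 CPM in WT and 27.6 CPM in KO macrophages. Empty barcodes hold free RNA alone, so a level below theirs does not show absence. Whether macrophages held Ddx25 transcripts of their own was not tested.

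**Figure D5:**
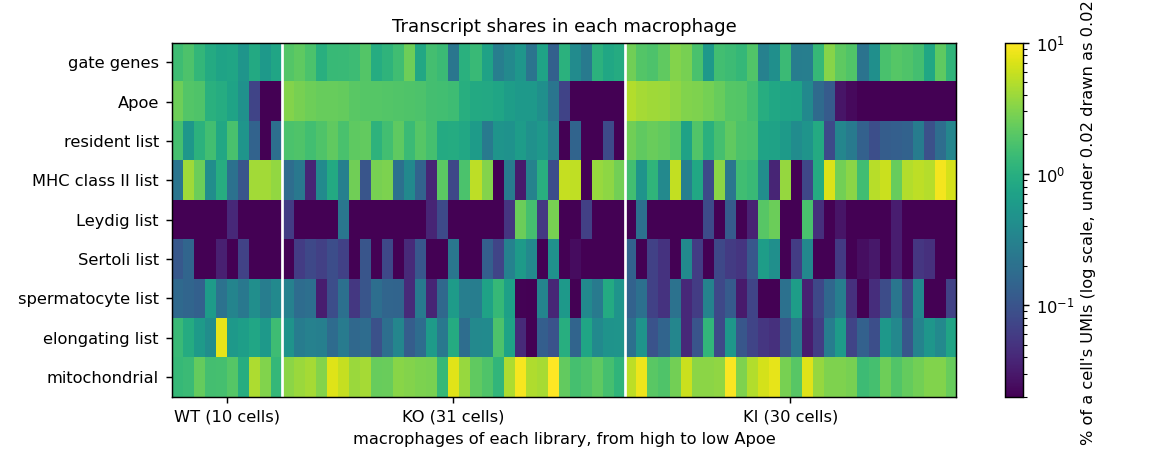
Percentage of each macrophage's UMIs (log colour scale) that fell on the gate genes, Apoe, 6 gene lists and mitochondrial genes, for the 10 WT, 31 KO and 30 KI macrophages, ordered within each library from high to low Apoe. MHC class II is bright at the low Apoe end of each library, the Leydig list is bright in 3 KO and 3 KI cells, and the elongating list is bright in 1 WT cell.

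WT had 10 macrophages, under the 20 set as the minimum for a comparison, so KO and KI were set side by side instead, and WT values are given beside them. Of 1304 genes that averaged 100 CPM or more and lay above the empty barcodes in both libraries, 48 (3.68%) were at least 2-fold higher in KI than in KO and 62 (4.75%) at least 2-fold lower, with 10 CPM added. As a mean over cells, in which each cell weighs the same, 96 were higher and 65 lower. These counts compare 2 libraries and not 2 genotypes. The median log2 ratio over all 1304 genes was -0.07. The UMIs of each gene were also traced in the library where it was higher. At least 50% of them came from a single cell, or from that library's cells rich in Leydig transcripts, for 17 of the 48 genes and 25 of the 62.

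The extremes were of that kind. Ccl6 was at 18.4 CPM in KO but 660 CPM in KI (log2 ratio 4.56, interval 3.28 to 8.22), with 115 of its 148 KI UMIs in the cell with most Spp1. Lgals3 was at 73.7 and 892 CPM (3.43, 2.59 to 4.83), with 172 of 200 KI UMIs there, and Fabp5 at 36.9 and 424 CPM (3.21, 2.12 to 5.43), with 70 of 95. Without that cell the log2 ratios were 2.56, 0.78 and 1.46. All KI UMIs of Hsd3b1 (3.50, 2.50 to 5.41) and C7 (2.92, 2.01 to 4.44) came from cells rich in Leydig transcripts. Sult1e1 (2.34) and C4b (2.26) were at 1.17 and 0.51 without those cells, where Sult1e1 was at only 12.5 CPM in KI and 0 CPM in KO. Lipa, the lysosomal lipase, was spread more widely, at 36.9 CPM in 4 KO cells and 223 CPM in 15 KI cells (2.31, 1.15 to 4.53).

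On the lower side, Mt3 (-3.94), Ass1 (-2.25), Star (-2.23), Gsta3 (-2.16) and Rtl4 (-1.88) also came from cells rich in Leydig transcripts, which held 95.7% to 100% of their KO UMIs. Of the others, Arsb, a lysosomal sulfatase, was at 479 CPM in 22 KO cells and 116 CPM in 13 KI cells (-1.96, -2.79 to -1.34), and at 415 CPM in WT. Iigp1, an interferon-induced GTPase, was at 221 CPM in 9 KO cells and 35.7 CPM in 5 KI cells (-2.34, -4.00 to -1.43), with 0 UMIs in WT. Tnf was at 175 CPM in 7 KO cells and 40.1 CPM in 3 KI cells (-1.88, -3.45 to -0.91).

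The list counts stand beside 3.68% of all genes higher and 4.75% lower. Of the 7 MHC class II genes compared, none was past 2-fold either way, with a median log2 ratio of 0.10, or 0.77 as a mean over cells. Of the 12 resident macrophage genes, 1 (Cbr2) was at least 2-fold lower in KI and none higher, with a median of -0.51, or -0.10 as a mean over cells. Of 24 lysosome and cathepsin genes, 3 were higher (Lipa, Cd9 and Ctsd) and none lower, with a median of 0.33. The cell with most Spp1 held 169 of the 279 KI UMIs of Ctsd, and without it Ctsd was at 0.50 and no longer past 2-fold, and the median of the 24 genes was -0.16. Of 12 lipid and lipoprotein genes, 6 were higher and none lower, with a median of 0.81, or 0.33 as a mean over cells. Without the cells rich in Leydig transcripts the median was 0.33 and Soat1 was at 0.90, under 2-fold. Apoc1, another of the 6, then had 0 UMIs in KI and 5 in KO. Without the cell with most Spp1, 5 were higher, Lgals3 no longer, and the median of the 12 was 0.40. With the genes to compare chosen anew without it, the medians of both lists were -0.24 and 0.02. Cx3cr1 was at 1107 CPM for WT, 516 for KO, and for KI 250. Its log2 ratio of KI over KO was -1.02 (-1.61 to -0.49), or -0.93 without the cell with most Spp1. As a mean over cells it was -0.37, under 2-fold. The deepest macrophage held 49869 of the 224318 KI UMIs and 3 of the 56 KI UMIs of Cx3cr1. Ratios of KI over KO without the deepest macrophage were not computed. The cells of low Apoe gave 47078 of the 224318 KI UMIs and 11024 of the 108529 KO UMIs, and genes of that side, such as Fxyd5 (55.3 CPM in KO and 223 in KI), Crip1 (378 and 1007) and Lsp1, were among those higher in KI, while Colec12 (691 and 201) was among those lower. The part of this mixture in the ratios was not tested.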

How the data were processed

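Single-cell RNA was measured in 3 libraries of mouse testis cells, 1 each of WT, KO and KI, with 7000 cells loaded per library. The authors deposited unfiltered UMI counts per gene and barcode (31053 genes), made with Cell Ranger 2.1.1 against mm10 as the submitters' processing notes name them. The headers of the deposited count matrices name a later Cell Ranger release. Library totals were 73150373 to 91388296 UMIs. The companion tables hold gene and barcode names.

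From the counts, barcodes were filtered and gated as the report states, UMIs were summed over the macrophages of a library, and levels were given as CPM with exact Poisson intervals, shares with Clopper-Pearson intervals and ratios with the exact binomial interval of the 2 sums, all at 95%. UMIs are not independent of the cell they came from, so intervals cover counting error only. No p-value was computed, because each genotype had 1 library. Doublets were neither called nor removed. Leydig and Sertoli barcodes held at least 5 UMIs and 0.2% of UMIs of 6 genes each, stromal and myoid barcodes at least 3 UMIs and 0.1% of 7. Empty barcodes were those ranked 45000 to 90000 by UMIs. Gene symbols were read as deposited, and 36 repeated symbols were in no list. Ratios had 10 CPM added, and a count of 0 was read as allowing 3 UMIs per pool.

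The members, the 33 gene lists and the comparisons were chosen with earlier results of these data known. The named genes were the 7 gate genes, the 25 outside the gate with the largest smallest ratio over the other kept barcodes, listed genes at 100 CPM or more, and, since WT had under 20 cells, the 8 highest and 8 lowest of KI against KO in place of the planned ratios against WT. Other genes in the text, the comparison of KI with KO, the split by Apoe (0.2% of UMIs), the values without the deepest macrophage, without low cells of at least 10 monocyte list UMIs and without the cell with most Spp1, and the group of at least 100 UMIs of the Leydig list were chosen after the data were seen. Interval and ratio code was tested on simulated counts. The software was pandas 2.3.3, Matplotlib 3.10.9, SciPy 1.17.1 and NumPy 2.4.6 under Python 3.11.15.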

Additional observations from a re-analysis of the deposited data

How the results depend on the processing

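No paired analysis was possible because each genotype had 1 library and the labels give no replicate numbers. The planned ratios of KO and KI to WT were not made, and their alternatives not run, because WT had 10 macrophages. With 500 UMIs as the minimum the share of macrophages moved out of its counting interval in KO (0.148%) and KI (0.485%), and with 2000 UMIs in KI (1.81%). A stricter gate of 6 UMIs and 0.2%, a mitochondrial limit of 5% and no condition on stromal UMIs kept the shares within their intervals. The 342 genes at least 4-fold above the other barcodes became 388 to 535 when 1 library was left out, 535 without WT, where more genes could be tested (1607 against 1064). Beside the 48 genes higher and 62 lower in KI than in KO, the counts were 19 and 17 with at least 200 CPM, where 519 genes were compared, and 92 and 103 with CPM over genes above the empty barcodes, where 2074 were. They were 96 and 65 as a mean over cells and 45 and 101 with cells of at least 2000 UMIs; the cause was not tested. Without the cells rich in Leydig transcripts 52 and 78 genes passed, 29 and 34 of them among the first sets, and C7 was at -1.91, a ratio of 2 KO UMIs to 0 KI UMIs that shows no change of direction. Among the 16 named ratios, 7 others moved out of their interval in that setting, 3 without the cell with most Spp1, 1 as a mean over cells (Mt3, -2.69) and 2 with the gate of 6 UMIs and 0.2% (Ass1, -1.09, and Gsta3, -0.91, which was then under 2-fold). These alternatives of KI against KO were chosen after seeing the data. The depth limits WT most: 3 UMIs in its macrophages are 138 CPM.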
